A study of Mus musculus with 6 samples.

Results

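Retinoid genes of the lung were examined in ob/ob mice given leptin or saline: 9 genes that carry vitamin A into cells, oxidise it to retinoic acid, bind it in the cell or act as its receptors. The genes were Rbp4, Stra6, Aldh1a1, Aldh1a2, Crabp1, Rara, Rarb, Rarg and Rxra, a list drawn up by role, with no measured value in its rule but with earlier results of these arrays known. They were found as the probe sets whose platform annotation gives a single symbol, that of the gene, which gave 11 probe sets for the 9 genes among the 20380 probe sets with 1 symbol. Rarg and Rxra had 2 each and the other genes 1 each.

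Vitamin A circulates as retinol on retinol binding protein and enters some cells through the membrane receptor Stra6. Inside the cell retinol is oxidised to retinal and then, by the aldehyde dehydrogenases of the Aldh1a group, to retinoic acid, which pairs of retinoic acid receptor and retinoid X receptor sense on DNA. In the lung, retinoic acid is known for its part in the formation of alveolar septa after birth, and interstitial fibroblasts of the lung store vitamin A as retinyl esters.

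All animals were B6.V-Lepob/J females of 1 month, homozygous ob/ob per the labels, and therefore without functional leptin of their own. They received leptin (3 arrays) or saline (3 arrays), and each array held lung RNA of 1 animal on the Affymetrix Mouse 430A design. The saline animals thus carry the same mutation as the treated ones, and no group of lean mice was analysed here. The labels give no dose, route or duration, and what is compared is lungs of leptin-deficient mice with and without the hormone given back, over an unstated course.

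Values are linear probe set intensities that had been brought to a common trimmed mean on each array before deposit. The number of arrays limits the precision. Saline replicate 1 stood apart: its log2 values correlated at 0.438 to 0.447 with the other 5 arrays, which correlated at 0.973 to 0.978 with one another (Pearson's r over probe sets within these arrays). The surfactant gene Sftpc of alveolar type II cells read 4087 on it and 23964 to 29732 on the others, and its dimmest 10% of probe sets ended at an intensity of 57.0, where those of the others ended at 16.3 to 19.2. The 5 red cell markers measured summed to 4649 to 6080 with leptin, to 13627 and 11015 on saline replicates 2 and 3 and to 706 on saline replicate 1, and their part in the results was not tested. Saline replicate 1 was kept apart from the other saline arrays, and the difference of each member is given without it and with it. Most values of other pathway genes and of markers are given without it only, and the sign of some differs with it. The comparison without it used 3 leptin arrays and the 2 retained saline arrays, replicates 2 and 3 in that order.

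No difference between leptin and saline lungs passed the adjusted threshold for the 7 of the 9 genes that could be tested, and Stra6 and Crabp1 were too dim. Of the 11 probe sets 9, for 7 genes, were bright enough to be tested. On the 5 arrays, 0 of these 9 passed an adjusted p of 0.05 in limma, where 0.0442% of all 15838 tested probe sets did. At an unadjusted p under 0.05 there were also 0 of 9, against 4.6% of all. The rule stated for the series (a p under 0.05 with 1.5-fold or more in most leptin-to-saline pairs of arrays, here 4 of 6) was met by 0 of 9, against 0.492% of all. The 9 log2 differences, leptin minus saline, had a median of -0.06, with 3 above 0 and 6 below, beside a median of 0.0012 over all tested probe sets, of which 50.3% were above 0 and 49.7% below. The groups did not overlap for 2 of the 9, both lower with leptin, against 9.66% of all tested probe sets in that direction. None of the 9 was higher with leptin without overlap, against 9.92% of all. With all 6 arrays, 0 of 9 passed the adjusted threshold or an unadjusted p under 0.05, against 0% and 0.385% of all, and 0 met the series' rule at 6 of 9 pairs, against 0.202%. There 5 of the 9 differences were above 0 and 4 below, against 51.3% and 48.7% of all, and 1 was lower and 0 higher without overlap, against 4.1% and 5% of all.

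Intervals of the differences show what size of change the 5 arrays allow. The 95% interval from limma, not adjusted for the number of probe sets, lay inside 1.5-fold in either direction for 7 of the 9 probe sets. Over all tested probe sets 58.2% had such an interval. The exceptions were Rbp4, whose interval reached a leptin-to-saline ratio of 1.80, and 1 of the Rxra probe sets, whose interval reached 0.643. The 9 tested probe sets had a median coefficient of variation over the 5 arrays of 11.9%, against 14.0% over all tested probe sets. It was 21.7% for Rbp4, and 32.5% and 70.9% for Stra6 and Crabp1, which were not tested. With all 6 arrays 0 of 9 intervals lay inside 1.5-fold, against 0.423% of all.

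**Figure D1:**
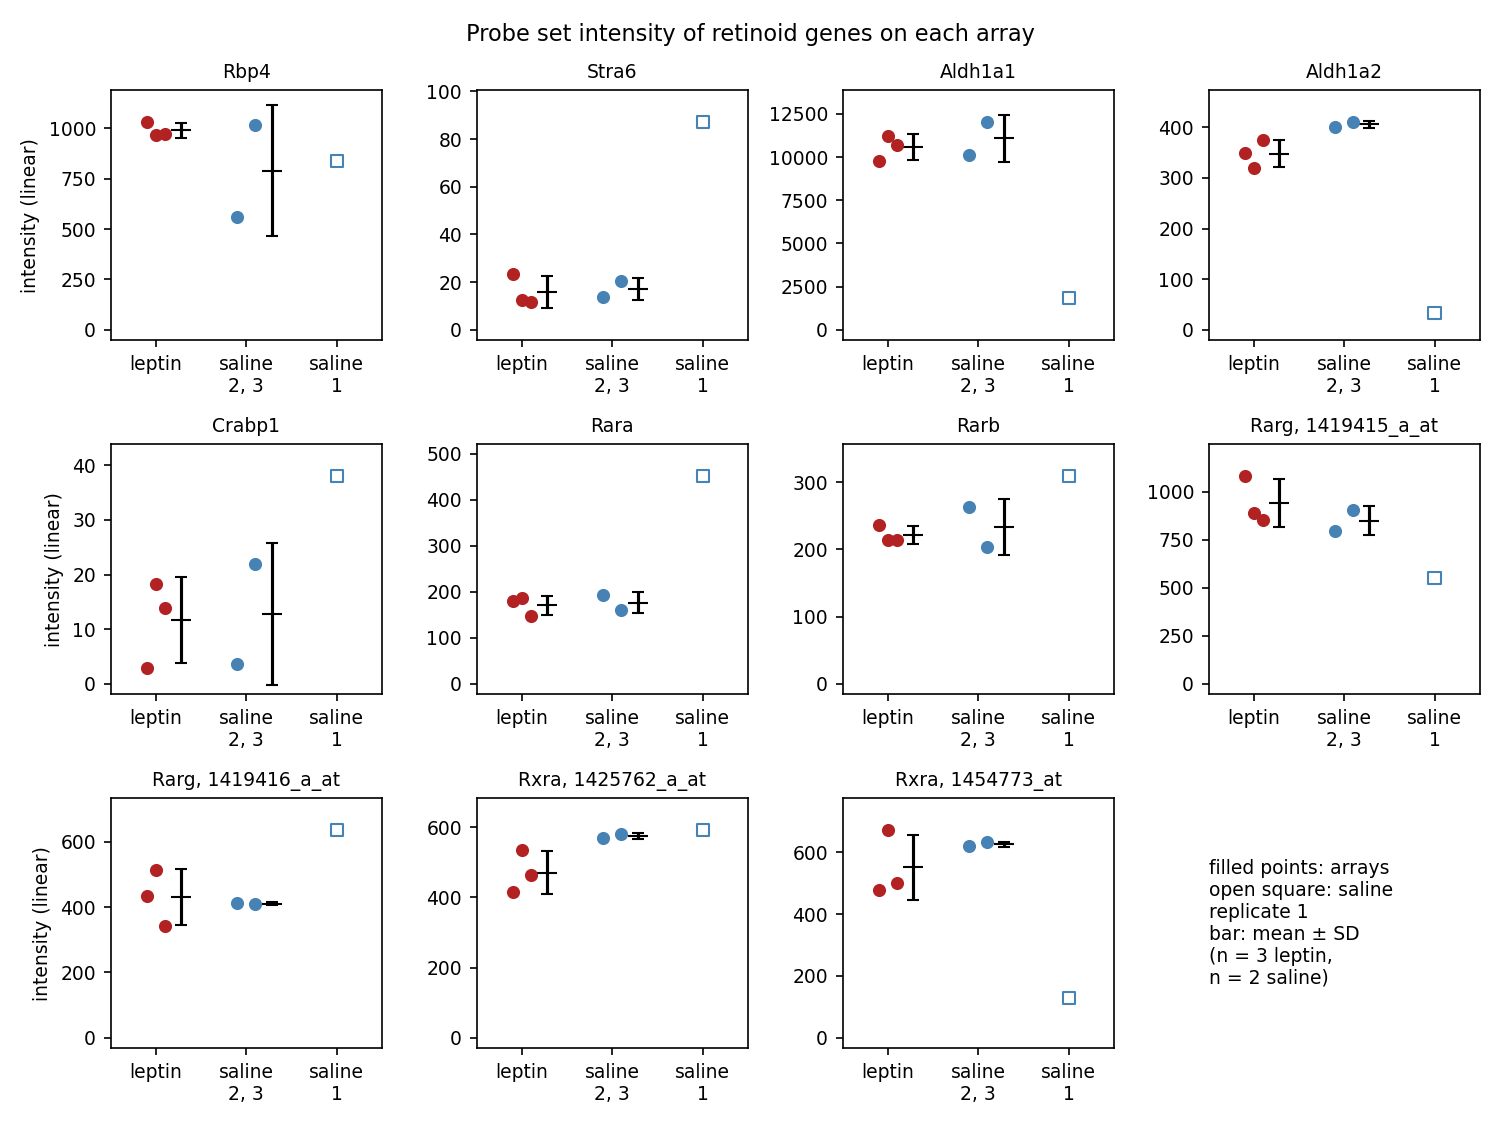
Linear intensity of the 11 retinoid probe sets on each array, with leptin arrays in red, saline replicates 2 and 3 in blue and saline replicate 1 as an open square; bars show the mean and SD over 3 leptin and over 2 saline arrays. The groups overlap without saline replicate 1 in all panels except Aldh1a2 and Rxra 1425762_a_at, and saline replicate 1 lies outside the other 5 arrays in 10 of 11 panels.

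Rbp4 encodes the plasma carrier of retinol, which the liver and adipose tissue secrete. Its probe set (1426225_at, Entrez Gene 19662) read 1033, 966.6 and 973.7 on leptin replicates 1, 2 and 3, and 560.9 and 1019 on the retained saline arrays. The leptin arrays were close together, 1 saline array was among them, and saline replicate 2 was lower than the other 4. Saline replicate 1 read 839.4, inside the range of the other arrays. The log2 difference without saline replicate 1 was 0.38 ± 0.21 (SE, 3 and 2 arrays), a ratio of 1.30 with a 95% interval of 0.939 to 1.80, and the limma adjusted p was 1.00. With all 6 arrays it was 0.33 ± 0.29 (limma adjusted p = 0.715).

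This difference rested on saline replicate 2. Without that array it was -0.04, and without saline replicate 3 it was 0.80, where Rbp4 became the single retinoid probe set to meet the series' rule (limma adjusted p = 0.399). Over the alternatives to the 5-array fit, the smallest adjusted p among the members ranged from 0.399 to 1.00. Adipoq, the adipocyte hormone adiponectin, read 512.8, 624.0 and 655.3 with leptin and 428.1 and 475.4 on the retained saline arrays, without overlap (0.38 on the log2 scale, limma adjusted p = 1.00). The summed level of the 4 adipocyte markers measured was 2296 to 2908 with leptin and 2270 to 2275 on these saline arrays, and 3 of the 4 were higher. Of these markers only Adipoq was without overlap. Fabp4 and Cidec were at 0.12 and 0.06, and Retn was lower at -0.01. Saline replicate 3, among the leptin arrays for Rbp4, was below all of them for Adipoq. The 5 hepatocyte markers summed to 343 to 488 with leptin and 488 to 504 with saline. Fgb, fibrinogen beta, read 2.2 to 3.6 on the 5 arrays, where the dimmest 10% of probe sets ended at 16.3 to 19.2. Only 2 of the 5 hepatocyte markers passed the filter on dim probe sets. The part of these cells in the Rbp4 values was not tested. In whole lung RNA, fewer cells of a type and less RNA per cell cannot be told apart.

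Stra6, the cell surface receptor that takes retinol from its carrier, was near the bottom of the scale. It read 23.5, 12.3 and 11.7 with leptin, 13.8 and 20.5 on the retained saline arrays, and 87.3 on saline replicate 1. On the 5 arrays this placed it at the percentile 7.25 to 11.9 of its array, so it was below the filter on dim probe sets. Fitted without that filter, the difference was -0.06 ± 0.23 on the 5 arrays and -0.55 ± 0.53 on all 6 (limma adjusted p = 0.998 and 0.737). The higher reading on saline replicate 1 was at percentile 18.2 of an array whose 10th percentile was itself raised.

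Aldh1a1 and Aldh1a2 are cytosolic enzymes that oxidise retinal to retinoic acid, the step that commits vitamin A to signalling. Aldh1a1 (1416468_at, Entrez Gene 11668) was a bright probe set, at percentile 99.5 or above on each of the 5 arrays. It read 9782, 11233 and 10715 with leptin and 10125 and 12050 on the retained saline arrays. The groups overlapped, and the difference of -0.06 ± 0.12 had the smallest SE of the members, with an interval from a ratio of 0.800 to 1.14. Saline replicate 1 read 1825, 5.87-fold below the median of the others, and including it turned the difference to 0.80 ± 0.80 (limma adjusted p = 1.00 on 5 arrays and 0.715 on 6). Aldh1a1 is also known in airway club cells, whose 4 markers were lower on average with leptin (median log2 difference -0.09, limma adjusted p = 1.00 for each). They summed to 78101 to 87392 with leptin, to 88692 to 90482 on the retained saline arrays and to 91725 on saline replicate 1. Most of that last sum was Scgb1a1, at 68880 against 18473 to 22288 on the other 5 arrays. Scgb3a2, Cyp2f2 and Cbr2 read 6590, 14638 and 1617 on saline replicate 1, each below all of the other 5 arrays. The part of the club cell markers in the Aldh1a1 values was not tested.

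Aldh1a2 (1422789_at, Entrez Gene 19378), the enzyme that makes most retinoic acid in the early embryo, read 349.6, 320.3 and 374.0 with leptin and 401.2 and 411.1 on the retained saline arrays. All 3 leptin arrays were thus below both saline arrays, by a log2 difference of -0.21 ± 0.16 (ratio 0.863, interval 0.677 to 1.10, limma adjusted p = 1.00). Leaving out each array in turn gave -0.26 to -0.16. On saline replicate 1 it read 33.6, 11.1-fold below the median of the others, and with that array the difference was 0.77 ± 0.81 (limma adjusted p = 0.715). Aldh1a2 is known in mesothelial cells, and some mesothelial markers read lower on the same arrays. Msln, mesothelin, read 498.7, 494.8 and 515.3 with leptin and 632.2 and 703.8 on the retained saline arrays (log2 difference -0.39). The 4 mesothelial markers measured summed to 4437 to 4560 with leptin, to 4871 and 5483 on the retained saline arrays and to 996 on saline replicate 1. Of the 3 that were tested, Msln and Upk3b were lower with leptin without overlap, and Krt19 was lower on average with overlap (limma adjusted p = 1.00 for each). Wt1, below the filter, read 72.0, 67.7 and 96.7 with leptin and 84.1 and 68.9 with saline. Their part in the Aldh1a2 values was not tested.

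Crabp1, a cellular retinoic acid binding protein of the cytoplasm, was close to the bottom of the scale and had the widest relative spread of the members over the 5 arrays. It read 2.9, 18.2 and 13.8 with leptin, 3.6 and 21.9 on the retained saline arrays, and 38.1 on saline replicate 1. Its highest value on the 5 arrays was 7.55-fold its lowest, and its percentile on the array ranged from 0.784 to 12.4. It was left out of the test as dim. Without the filter the difference was -0.02 ± 0.31 on 5 arrays and -0.30 ± 0.47 on 6 (limma adjusted p = 0.999 and 0.767).

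Rara, Rarb and Rarg encode the retinoic acid receptors alpha, beta and gamma, nuclear receptors that bind DNA beside a retinoid X receptor. Rara (1450180_a_at, Entrez Gene 19401) read 179.0, 185.4 and 147.7 with leptin and 192.2 and 159.8 on the retained saline arrays. The groups overlapped, with a difference of -0.04 ± 0.21 and an interval from a ratio of 0.706 to 1.34 (limma adjusted p = 1.00). On saline replicate 1 it read 452.3, 2.53-fold above the median of the others, and the difference with that array was -0.46 ± 0.43 (limma adjusted p = 0.715).

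Rarb is the receptor gene that retinoic acid itself induces, through a retinoic acid response element in its promoter. That element is shown because it is the textbook link between retinoic acid and a measured gene. Promoter windows of 300 bases (250 before and 50 after a transcript start, RefSeq, build GRCm38.p6) were held for all 9 genes, 19 windows in all. They were searched on both strands for 2 copies of GGTCA or GTTCA, in any combination and the same orientation, which are the last 5 bases of the 6-base receptor binding unit. With 5 bases between the 6-base units, 1 of the 19 windows held a match, that of Rarb, against 0.247% of 32851 windows of mouse genes. With 2 bases or 1 base between the units, 0 of 19 did, against 0.399% and 0.402%. The Rarb element was known before the search, so 1 of 19 is not a result about the members. Among the other pathway genes, the window of Cyp26a1, the enzyme that breaks retinoic acid down, held the 5-base form. The stretches upstream of the start are chr14:16575477-16575596 on the minus strand for Rarb and chr19:37697688-37697807 on the plus strand for Cyp26a1, both written in the direction of the gene, with both units and the bases between them in capitals.
Rarb: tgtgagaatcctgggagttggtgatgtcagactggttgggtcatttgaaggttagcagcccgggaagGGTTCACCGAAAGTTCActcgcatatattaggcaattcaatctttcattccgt
Cyp26a1: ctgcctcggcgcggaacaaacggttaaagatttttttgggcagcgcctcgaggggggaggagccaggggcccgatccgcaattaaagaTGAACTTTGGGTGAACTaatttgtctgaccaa
The Rarb match lies 53 to 37 bases before the start, and the Cyp26a1 match 32 to 16 bases before it on the opposite strand, where it reads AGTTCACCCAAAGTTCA. A match is a description of these letters and not a measured binding site.

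Rarb (1454906_at, Entrez Gene 218772) read 236.0, 214.0 and 213.7 with leptin and 263.1 and 203.2 on the retained saline arrays. The leptin arrays lay between the saline arrays, and the difference was -0.06 ± 0.19, with an interval from a ratio of 0.717 to 1.28 (limma adjusted p = 1.00). Saline replicate 1 read 309.4, above the other 5, and the difference on all 6 arrays was -0.19 ± 0.27 (limma adjusted p = 0.740). By rank within its array that reading was at percentile 48.6, inside the 47.9 to 53.5 of the other 5. Cyp26a1 was below the filter, at 26.8, 82.1 and 73.5 with leptin, 82.2 and 84.2 on the retained saline arrays, and 394.8 on saline replicate 1. Of the 73 genes whose windows held the 5-base form, 17 were tested on the 5 arrays, with 8 higher and 9 lower, 0 past the adjusted threshold, 2 at an unadjusted p under 0.05 and a median of -0.0012. Over all 9365 genes tested, 4.3% had an unadjusted p under 0.05 and the median was -0.0072. That list was drawn up with the values known and received no test.

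Rarg was measured by 2 probe sets (Entrez Gene 19411), and the groups overlapped on both. The brighter, 1419415_a_at, read 1083, 887.5 and 852.5 with leptin and 795.2 and 901.9 on the retained saline arrays, a difference of 0.14 ± 0.15. It was 0.038 without leptin replicate 1 and 0.052 without saline replicate 2. The other, 1419416_a_at, read 435.5, 514.5 and 342.8 with leptin and 413.6 and 408.8 with saline, a difference of 0.05 ± 0.18 that turned to -0.08 without leptin replicate 2. Saline replicate 1 split them, since it read 550.2 on the brighter probe set, below the other arrays, and 637.5 on the other, above them. With all 6 arrays the differences were therefore of opposite sign, 0.34 ± 0.28 and -0.16 ± 0.30 (limma adjusted p = 1.00 for both on 5 arrays, and 0.715 and 0.792 on 6).

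Rxra encodes retinoid X receptor alpha, the partner of the retinoic acid receptors and of several other nuclear receptors. Probe set 1425762_a_at (Entrez Gene 20181) read 413.7, 534.3 and 462.3 with leptin and 568.2 and 580.7 on the retained saline arrays. All leptin arrays were below both saline arrays, by -0.28 ± 0.16 (ratio 0.821, interval 0.643 to 1.05, limma adjusted p = 1.00). Saline replicate 1 read 592.3, so the groups also did not overlap on all 6 arrays, where 4.1% of all tested probe sets were lower with leptin without overlap. The difference was then -0.30 ± 0.23 (limma adjusted p = 0.715). It was the only tested member probe set without overlap on 6 arrays. By rank within the array, however, saline replicate 1 was at percentile 68.9 on this probe set, below leptin replicate 2 at 71.5. The other 5 arrays were at percentiles 64.6 to 73.6, so the lack of overlap on 6 arrays depends on the intensity scale of saline replicate 1.

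The other Rxra probe set, 1454773_at, read 477.9, 673.3 and 502.1 with leptin and 620.5 and 632.3 on the retained saline arrays. Here leptin replicate 2 was above both saline arrays, so the groups overlapped, with a difference of -0.19 ± 0.17 (limma adjusted p = 1.00). Leptin replicate 2 was the highest leptin array on both Rxra probe sets, and without it the differences were -0.38 and -0.34. Without leptin replicate 1 they were -0.20 and -0.10. Saline replicate 1 read 129.2 on 1454773_at, 4.80-fold below the median of the others, while it was 1.11-fold above the median on 1425762_a_at. With it, the difference of 1454773_at was 0.51 ± 0.61 (limma adjusted p = 0.717), opposite in sign to the other probe set.

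**Figure D2:**
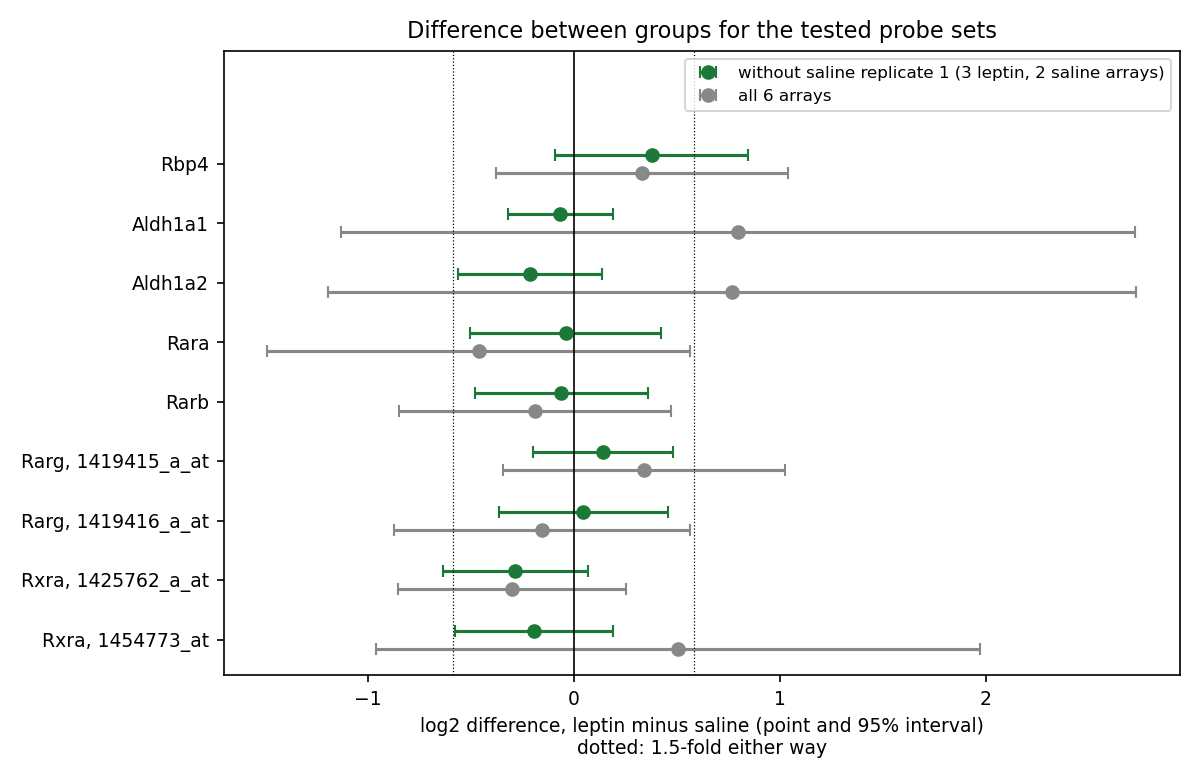
Log2 difference, leptin minus saline, with its 95% interval from limma, for the 9 tested retinoid probe sets, without saline replicate 1 (green) and on all 6 arrays (grey); dotted lines mark 1.5-fold in either direction. All 9 green intervals include 0, and 7 of them lie between the dotted lines, whereas 0 of the grey ones do.

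Saline replicate 1 is part of the saline mean on 6 arrays, so its place moves the difference there by arithmetic. Of the 9 tested probe sets that array was below the range of the other 5 for 4, above it for 4 and within it for 1, Rbp4. Over all tested probe sets, 47.0% were below the range, 41.9% above and 11.1% within. The 4 below it (Aldh1a1, Aldh1a2, Rarg 1419415_a_at and Rxra 1454773_at) had a difference above 0 on 6 arrays, and the 4 above it (Rara, Rarb, Rarg 1419416_a_at and Rxra 1425762_a_at) had a difference below 0. Including that array turned the sign for Aldh1a1, Aldh1a2, Rarg 1419416_a_at and Rxra 1454773_at. The other tested probe sets had the same sign on 5 arrays as on 6.

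**Figure D3:**
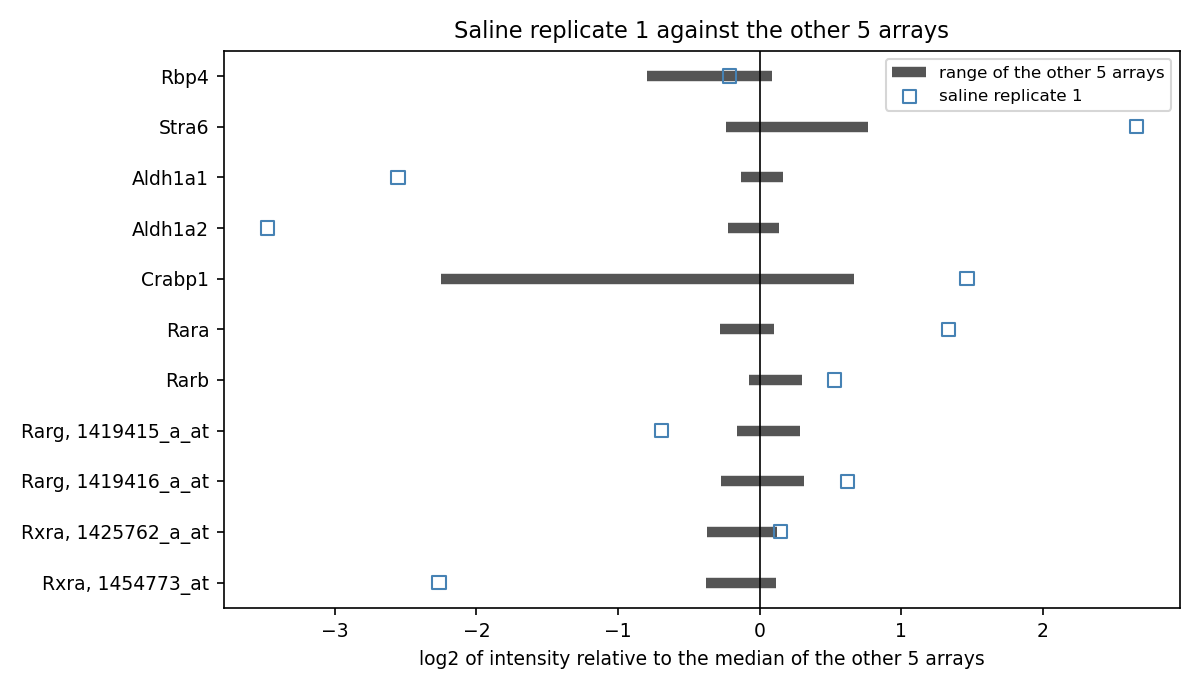
Intensity of saline replicate 1 (open squares) as log2 of its ratio to the median of the other 5 arrays, for the 11 retinoid probe sets; grey bars show the range of those 5 arrays around their median. Only Rbp4 lies inside its bar, and the 2 probe sets of Rarg and of Rxra lie on opposite sides.

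Nor did a difference pass the adjusted threshold among the other genes of the pathway that could be tested. Of 62 such genes, listed by role, 52 had a probe set with a single symbol and 36 were tested on the 5 arrays, each by its brightest tested probe set. On these probe sets 0 of 36 passed the adjusted threshold in limma, 0 an unadjusted p under 0.05 and 0 the series' rule, against 0.0442%, 4.6% and 0.492% of all tested probe sets. Among the other tested probe sets of these genes, 1 of Fabp5 and 1 of Hoxb4 had an unadjusted p under 0.05. On the brightest tested probe sets the 36 differences ranged from -0.27 to 0.30, with 15 above 0, 21 below and a median of -0.03. The groups did not overlap for 1 gene that was higher with leptin, the alcohol dehydrogenase Adh7 (0.22 ± 0.15), and for 4 that were lower, against 9.92% and 9.66% of all tested probe sets. On all 6 arrays 37 were tested, with 20 above 0 and 17 below, and 0 passed. The added gene was Ttr, the plasma partner of Rbp4, which passed the filter only through its high reading on saline replicate 1.

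In the list of retinol uptake, storage and release, 6 of 12 genes were tested, 2 higher and 4 lower. The smallest p belonged to Lipe, the hormone-sensitive lipase, at -0.16 ± 0.16, and Bco1, which cleaves beta-carotene to retinal, at 0.30 ± 0.30. Lrat, which makes the retinyl esters of vitamin A stores, read 224.6, 121.0 and 131.2 with leptin and 152.8 and 217.5 on the retained saline arrays, with full overlap.

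Among enzymes that interconvert retinol and retinal or oxidise retinal, 13 of 20 were tested, 5 higher and 8 lower. Adh1, an alcohol dehydrogenase that oxidises retinol, read 2758, 2181 and 2928 with leptin and 1994 and 2313 on the retained saline arrays (0.27 ± 0.15, with overlap). Dhrs7, a short-chain dehydrogenase, read 722.0, 686.4 and 782.0 with leptin and 881.0 and 848.0 with saline, all lower with leptin (-0.24 ± 0.14). Rdh10, the main retinol dehydrogenase of the embryo, was nearly level, from 517.3 to 532.2 with leptin against 506.2 and 536.4. Dhrs4, without overlap at -0.11 on its brighter probe set, was at -0.0031 on its other.

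Of the genes that bind or break down retinoic acid, 1 of 5 was tested. Fabp5, a fatty acid binding protein that also carries retinoic acid, read 3002, 3401 and 2807 with leptin and 3628 and 3773 on the retained saline arrays. All leptin arrays were lower, by -0.27 ± 0.12, and its other probe set was at -0.35 (limma unadjusted p = 0.0523 and 0.0224, adjusted p = 1.00 for the brighter). On saline replicate 1 the brighter probe set read 34234, and with all 6 arrays its difference was -1.34. The other probe set was at 0.53 with all 6 arrays, opposite in sign.

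Of the remaining receptors and their coregulators 6 of 10 were tested, 2 higher and 4 lower. The coactivator Ncoa1 was at -0.14 ± 0.14 and Rxrb, retinoid X receptor beta, at -0.25 ± 0.32. Rxrb was spread widely within each group, at 581.1, 509.8 and 924.7 with leptin and 1183 and 508.8 with saline. Of 15 genes known to respond to retinoic acid, 10 were tested, 6 higher and 4 lower, with a median of 0.01. Hoxa5, a homeobox gene of lung mesenchyme, was at 0.19 ± 0.17 and Rarres2, which encodes chemerin, at -0.12 ± 0.12. The groups did not overlap for Rarres2 on that probe set, whereas its other tested probe set was at 0.01. Hoxb4, another homeobox gene, was at -0.13 on its brighter probe set and at -0.66 on its other (limma unadjusted p = 0.0202), and the latter was named after its value was seen.

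**Figure D4:**
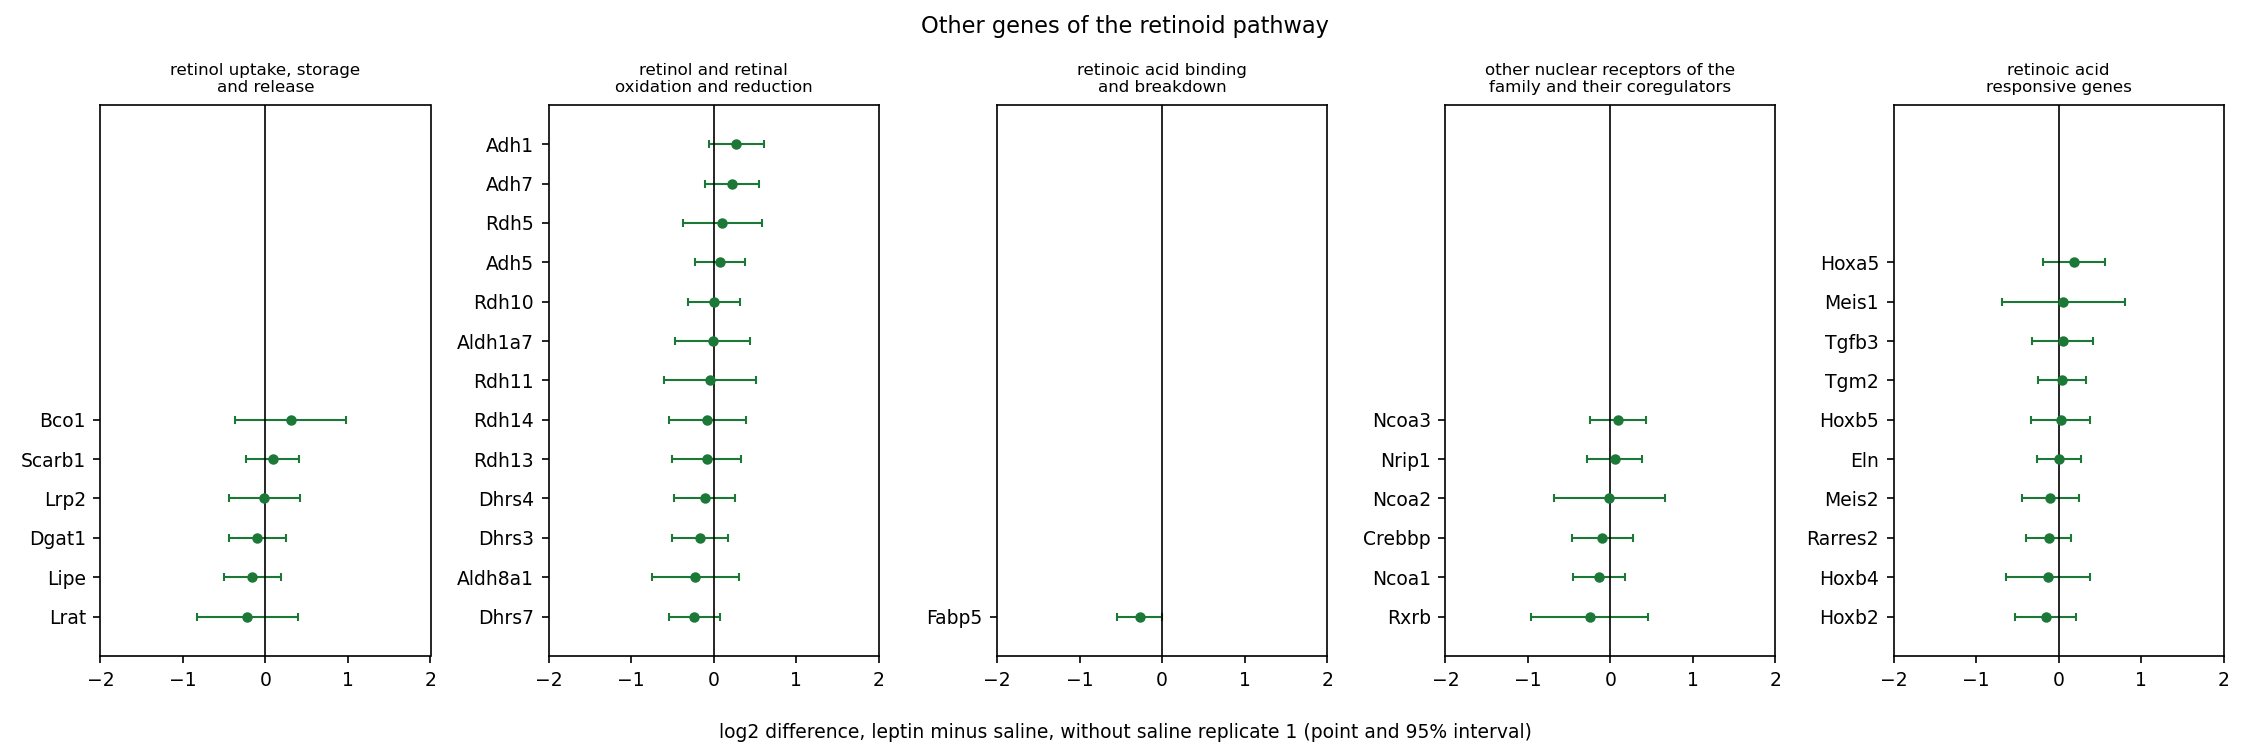
Log2 difference, leptin minus saline, without saline replicate 1, with its 95% interval from limma, for 36 other genes of the retinoid pathway in 5 lists. Every interval shown includes 0, and the points run from -0.27 for Fabp5 to 0.30 for Bco1.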

How the data were processed

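Lung RNA of 6 mice was measured on Affymetrix arrays after T7-oligo(dT) amplification, per the labels' protocols. The deposited table holds an intensity per probe set on a linear scale. Its summarisation software is not given in the sources used here, and a mean trimmed by 2% at each end lies between 500.10 and 500.14 on each array, so the authors' values had been scaled to a common mean.

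Of 22690 probe sets, 64 controls were left out. Names come from the platform annotation (20380 probe sets with 1 symbol, 691 with several, 1555 with none), and all 9 members matched the RefSeq table (GRCm38.p6) by Entrez Gene ID. Values became log2(intensity + 22.0), a pseudocount at the 10th percentile over the 6 arrays, which makes folds of dim probe sets smaller. The lowest 30% by mean log2 value were left out, leaving 15838 for limma 3.58.1 in R 4.3.3 (lmFit, eBayes with trend, two-sided, Benjamini-Hochberg over all tested). The series does not name the test of its rule, and a 2-sample test with pooled variance was used. The fit was tested on simulated data.

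The members, lists and tests were chosen with earlier results of these data known. All members are named, and of each pathway list the 2 tested genes with the smallest p; others were chosen after their values were seen. Lists are described, not tested. Arrays of the same number, each taken relative to its group mean, correlated at 0.103 to 0.144 on 6 arrays, and those of different number at -0.147 to 0.049. Taking values relative to the group mean ties these correlations to one another, and 1 pair holds saline replicate 1. They therefore cannot decide whether the numbers pair the animals, and the labels do not say so. The p-values measure the spread between these arrays.

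Alternatives were a common median, quantile normalization, a pseudocount of 1 or of 79.9 (25th percentile), the filter off or at 50%, no trend, array weights, the replicate block, and leaving out each array.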

Additional observations from a re-analysis of the deposited data

How the results depend on the processing

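No member passed the adjusted threshold under any alternative run. With the replicate block the smallest adjusted p among the members was 0.733 on 5 arrays and 0.737 on 6, and 0 had an unadjusted p under 0.05. An unadjusted p under 0.05 was reached by 1 member with array weights on 6 arrays and by 1 without saline replicate 3 on 5 arrays, and by 0 under the other settings. The block, or pairing by number, changed no member's call. On 5 arrays leptin replicate 1 had no saline array of its number, so the blocked differences were those without leptin replicate 1. The count of all probe sets past the threshold on 5 arrays went from 7 to 0 with the block. It was also 0 on leaving out leptin replicate 1 without a block, so the drop cannot be ascribed to pairing. A common median, quantile normalization, no trend, no filter and a pseudocount of 1 also gave 0, and leaving out 1 more array gave 0 to 3. On 6 arrays the count was 0, with 8 under array weights and 0 to 7 when an array was left out, 7 being without saline replicate 1. The series' rule was met by 32 probe sets on 6 arrays, by 17 with the larger pseudocount, 20 with the filter at 50%, 114 with it off and 16 to 89 with an array left out (16 without leptin replicate 1, and 78, 79 and 89 without saline replicates 1, 2 and 3). On 5 arrays it was met by 78, and by 50, 49, 242 and 72 to 145 likewise, with 137 and 145 without saline replicates 2 and 3. Member probe sets meeting it on 5 arrays were 0 to 1 with an array left out, the 1 being Rbp4 without saline replicate 3.

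Signs turned on 6 arrays for Aldh1a1, Aldh1a2, Rarg 1419416_a_at and Rxra 1454773_at, to -0.016, -0.20, 0.056 and -0.16 with array weights. Leaving out 1 array there gave ranges of -0.065 to 1.29, -0.21 to 1.27, -0.29 to 0.046 and -0.19 to 0.86, the turned end of each being without saline replicate 1. On 5 arrays the ranges that crossed 0 were -0.040 to 0.80 for Rbp4, -0.16 to 0.079 for Rara and -0.23 to 0.11 for Rarb, turned without saline replicate 2, -0.19 to 0.061 for Aldh1a1, turned without saline replicate 3, and -0.085 to 0.19 for Rarg 1419416_a_at, turned without leptin replicate 2. Rara was also at 0.05 without leptin replicate 3. The other settings kept the sign of each tested member. On 6 arrays a common median moved the median of all tested probe sets to 0.17 from 0.02, and on 5 arrays to -0.01. With 2 retained saline arrays, 1 array can turn the sign of a difference near 0, and Stra6 and Crabp1, close to the bottom of the scale, carry little information on any change.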

Other observations

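The 52 other retinoid genes measured were placed against the range of the other 5 arrays. Saline replicate 1 read above it for 26, below it for 19 and within it for 7. Over all tested probe sets the shares were 41.9%, 47.0% and 11.1%. These shares cannot be compared directly with the counts, since only 36 of the 52 genes were tested on the 5 arrays. The untested genes were dim, and the dimmest 10% of probe sets ended at 16.3 to 19.2 on the other 5 arrays but at 57.0 on saline replicate 1. Ttr, transthyretin, which binds the Rbp4 protein in plasma, read 11448 there on its brightest probe set, at percentile 99.4 of that array, and 19.7 to 57.3 on the others. A second Ttr probe set read 3619 against 6.1 to 24.1, and the other 71.3 against 10.8 to 17.2. Rxrg, retinoid X receptor gamma, read 352.6 against 12.0 to 23.1, and Rdh12, a retinal reductase, 352.9 against 13.9 to 57.9. Lower readings there included Rdh14, a retinol dehydrogenase, at 74.1 against 492.9 to 810.6, and Rarres2 at 279.4 against 1886 to 2255. These are readings of a single array, which enters the 6-array comparison but not the 5-array one.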
